A study of Mus musculus with 4 samples.

Results

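The transferrin receptor gene Tfrc and 6 other genes of cellular iron handling (Fth1, Ftl1, Aco1, Ireb2, Slc11a2 and Hmox1) were examined across 4 clonal mouse neural stem cell lines. They were taken as every probe set, the group of short oligonucleotides that reports 1 transcript, whose annotated symbol was one of these 7 genes. To these came the array's own control probe sets for the mouse transferrin receptor, whose names hold TransRecMur. That gave 13 of the 12469 probe sets of the table (7 of 8934 annotated gene symbols), 10 for genes and 3 array controls, of which 5 report Tfrc, 2 Fth1, 2 Slc11a2 and 1 each of the other genes. The genes were selected on their role in iron handling with signals of these arrays already known, among them those of Nurr1-transfected against control clones. Their differences between these clones are therefore a description and carry no test.

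All 4 lines are clones of c17.2, an immortalised line of mouse neural stem cells, grown under proliferating conditions. Clone 42 and clone 48 carry a stable transgene for Nurr1, an orphan nuclear receptor encoded by Nr4a2. The control clones puroB and puroD carry only the vector for puromycin resistance. The submitters matched clone 42 with puroB and clone 48 with puroD by proliferation rate, as each sample's own description states. The series' design text names clone 42 in both pairs, the second time with c48 in brackets, and the sample descriptions were followed. Biotin-labelled target made from total RNA of each clone was hybridised to 1 Affymetrix array. Each line is 1 clone, so a difference between lines can belong to the clone as well as to the transfected gene, and the 2 cannot be told apart. With 4 arrays in all, their number limits the precision. The signal of Nr4a2 was not higher in the clones labelled as carrying its transgene. At probe set 92248_at it was 320.1 for clone 42 and 206.4 for clone 48, versus 485.0 for puroB and 254.2 for puroD. The other Nr4a2 probe set gave log2 differences of -0.98 and -0.91 in the pairs. Whether these probe sets cover the transfected sequence is not given, so the level of the transgene cannot be read from them. Clone 42 and clone 48 are therefore called the Nurr1-labelled clones.

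A cell takes up iron by binding transferrin to the transferrin receptor and carrying the complex into endosomes, where the transporter DMT1, encoded by Slc11a2, moves the iron into the cytosol. Iron not in use is stored inside ferritin, a shell of heavy (Fth1) and light (Ftl1) chains. The iron regulatory proteins IRP1 (Aco1) and IRP2 (Ireb2) bind hairpins called iron responsive elements when iron is scarce, which stabilises the Tfrc transcript and blocks translation of the ferritin transcripts. Heme oxygenase, encoded by the stress-inducible gene Hmox1, frees iron from heme. Dividing cells generally carry many transferrin receptors. An array reports transcript levels, so the translational arm of this system, which sets most of the ferritin response, is outside these data.

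Promoter windows were available for 5 of the 7 genes, 7 windows in all. Each window runs from 250 bases before a transcript start to 50 after it. The Tfrc window at chr16:32608872-32609171 (RefSeq, GRCm38.p6, plus strand) is shown because Tfrc was lower in both Nurr1-labelled clones at each of its 5 probe sets. Capitals mark ACGTG, the core of the hypoxia response element, and TGACGT, a cyclic AMP response element core.

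Tfrc: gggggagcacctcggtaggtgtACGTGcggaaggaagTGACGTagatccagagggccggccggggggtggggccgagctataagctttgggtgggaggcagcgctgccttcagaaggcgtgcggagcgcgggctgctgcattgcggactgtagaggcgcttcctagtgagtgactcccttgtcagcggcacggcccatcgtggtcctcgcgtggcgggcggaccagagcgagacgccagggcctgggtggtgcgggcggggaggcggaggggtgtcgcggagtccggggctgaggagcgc

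ACGTG starts at -228 and TGACGT at -213, counting the first transcribed base as 0, and these runs of letters do not overlap. An upstream Tfrc start has a window of its own, which overlaps this one and holds the same copies of both motifs. Counted from that start, ACGTG begins at -2 and TGACGT at 13. The first then spans the start and the other lies after it, so their place depends on the start used. Searched on both strands, ACGTG stood in 19.6% of the 32851 mouse windows of this length and in both Tfrc windows alone among the 7 windows examined. TGACGT stood in 7.51% of all windows, and here too in the Tfrc windows alone. AAAGGTCA, the site to which Nurr1 binds as a monomer, stood in 1.51% of all windows and in 0 of these 7. A match in letters is a description of the sequence and says nothing of binding.

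Tfrc, the receptor for iron-loaded transferrin, was lower in both Nurr1-labelled clones than in both controls at all 5 probe sets. At 103957_at its MAS5 signal, the intensity that Affymetrix's algorithm gives each probe set, was 271.2 (clone 42) and 156.1 (clone 48), compared with 430.5 (puroB) and 483.9 (puroD). Clone 48 was the lowest array, clone 42 the next, and the groups did not overlap. In RNA of whole cultures, fewer cells with the transcript and less transcript per cell cannot be told apart. The signal was 1.59-fold lower in the pair of clone 42 and 3.10-fold lower in that of clone 48. On the log2 scale the difference averaged -1.15 ± 0.68 (SD over both pairs), whereas puroB and puroD differed by -0.17 from each other and clone 42 and clone 48 by 0.80. The 2 Nurr1-labelled clones thus differed more from one another than the controls did.

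The brighter gene probe set of Tfrc, 103958_g_at, gave the same order of clones with smaller differences. Its signals were 2249.1 for clone 42 and 1684.9 for clone 48, versus 2492.7 for puroB and 2790.5 for puroD. The log2 differences were -0.15 with clone 42 and -0.73 with clone 48 (mean -0.44 ± 0.41, SD). In the first pair this is as small as the -0.16 between the control clones. The size of the Tfrc difference therefore depended on the probe set, while its direction did not.

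The 3 array control probe sets for the transferrin receptor are placed along the transcript, toward its 3' end, its middle and its 5' end. The 3' probe set had signals of 452.5 (clone 42) and 228.7 (clone 48), compared with 806.7 (puroB) and 879.2 (puroD), or 1.78-fold and 3.85-fold lower in the pairs. The 5' probe set had 78.5 for clone 42 and 39.1 for clone 48, versus 126.7 for puroB and 141.3 for puroD. The middle one had 77.5 (clone 42) and 8.2 (clone 48), compared with 172.0 (puroB) and 157.0 (puroD). In clone 48 the last 2 probe sets lay no higher than the brightest control for a transcript that had not been spiked in on that array (39.1). With clone 48 set to the floor of 40.3, its signals at these probe sets were at least 3.51-fold and 3.89-fold lower than in puroD. Since that floor is near the background, these bounds hold for signals and not for the amount of transcript.

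**Figure D1:**
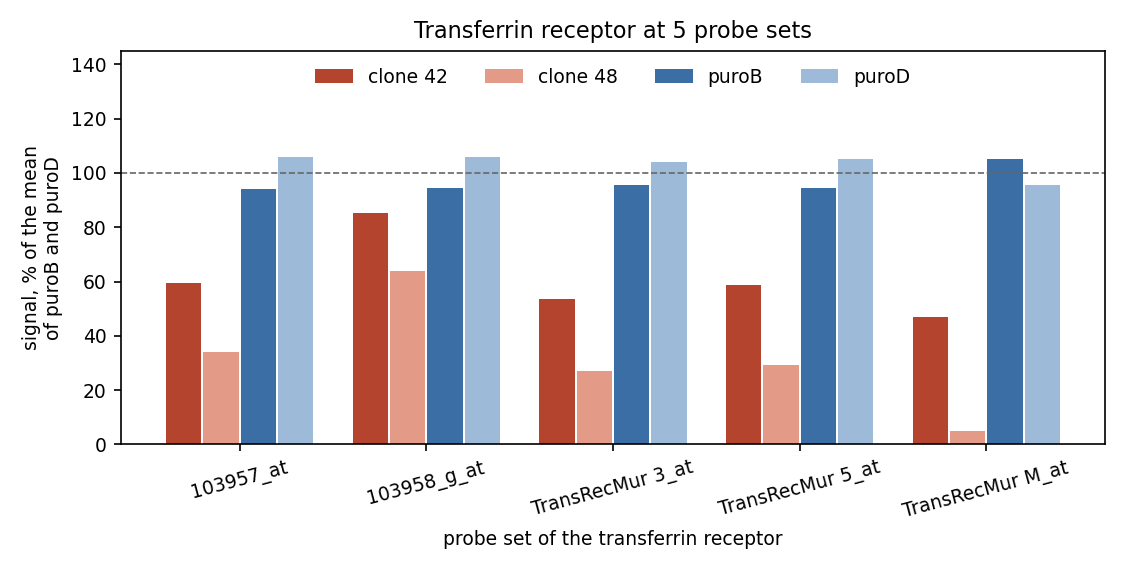
Signal of the 5 transferrin receptor probe sets in each clone, as a percentage of the mean of puroB and puroD (vertical axis, linear from 0), with 1 bar per array. Clone 42 lies between 47.1% and 85.1%, clone 48 between 4.98% and 63.8%, and the controls between 94.2% and 106%; the clone 48 bars of TransRecMur 5_at and M_at are no higher than background.

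Clone 48 was the lowest and clone 42 the second lowest array at 5 of 5 Tfrc probe sets. All 5 target the same transcript on the same 4 hybridisations, so they are repeated readings of each array and not replicates of the clones. The ratio of 3' to 5' transferrin receptor signal was 5.76 for clone 42 and 5.85 for clone 48, versus 6.37 for puroB and 6.22 for puroD. In clone 48 the 5' signal was at background, so that ratio is a lower bound for signals at best. For actin, whose ratio is a usual sign of RNA integrity, it was 1.68 (clone 42) and 2.41 (clone 48), compared with 1.51 (puroB) and 2.0 (puroD), higher in the Nurr1-labelled clone of each pair. In the pair of clone 42 the transferrin receptor ratio was thus lower and the actin ratio higher in the Nurr1-labelled clone. The part of RNA integrity in the Tfrc difference was not tested further.

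Slc11a2, the endosomal iron transporter that works downstream of the receptor, differed in opposite directions in the 2 pairs. Probe set 102642_at had signals of 670.6 for clone 42 and 939.8 for clone 48, versus 728.1 for puroB and 683.4 for puroD. At 104451_at they were 377.6 (clone 42) and 665.2 (clone 48), compared with 464.0 (puroB) and 536.4 (puroD). Both probe sets put clone 48 highest of the 4 arrays and clone 42 lowest, so the groups overlapped. The log2 differences were -0.12 and 0.46 at the first probe set and -0.30 and 0.31 at the other.

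The ferritin chains, which form the iron store, showed small differences that did not run one way. For Fth1 the brighter probe set, 94794_at, had 6667.2 for clone 42 and 6117.6 for clone 48, versus 6895.6 for puroB and 8470.9 for puroD. Both Nurr1-labelled arrays were lower, but clone 42 differed from puroB by only -0.05 on the log2 scale, and the controls differed by -0.30. The other Fth1 probe set, 161913_r_at, had 5004.6 (clone 42) and 3589.2 (clone 48), compared with 3875.8 (puroB) and 3395.0 (puroD), and was higher in both pairs (0.37 and 0.08). The 2 Fth1 probe sets disagreed in direction. The light chain probe set, 99872_s_at, is annotated to both Ftl1 and the pseudogene Ftl1-ps2, so its signal cannot be assigned to Ftl1 alone. Its signals were 12551.9 for clone 42 and 10261.1 for clone 48, versus 11142.8 for puroB and 11574.8 for puroD. The mean log2 difference was -0.0011 ± 0.24 (SD over both pairs), with the control signals inside the range of the Nurr1-labelled ones.

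The iron regulatory proteins differed in opposite directions from each other. Ireb2, which encodes IRP2, the regulator that is degraded when iron is plentiful, had signals of 438.2 (clone 42) and 391.7 (clone 48), compared with 619.6 (puroB) and 532.9 (puroD). It was 1.41-fold and 1.36-fold lower in the pairs, the groups did not overlap, and its mean log2 difference of -0.47 ± 0.04 (SD) had the smallest spread over the pairs of the 13 probe sets. Aco1, which encodes IRP1, a protein that doubles as cytosolic aconitase when it carries an iron-sulfur cluster, had 112.4 for clone 42 and 169.6 for clone 48, versus 81.4 for puroB and 107.0 for puroD. Both Nurr1-labelled arrays were above both controls, with ratios of 1.38 and 1.59 in the pairs. Clone 42 exceeded puroD only narrowly, and Aco1 was too dim for the test across all genes. The log2 difference of Aco1 between clone 42 and clone 48, -0.59, was as large as the one between the groups, 0.56 ± 0.14 (SD over both pairs).

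Hmox1, the inducible heme oxygenase, followed the matched pairs and not the labelled gene. At its probe set, 160101_at, signals were 1608.2 (clone 42) and 586.8 (clone 48), compared with 1390.9 (puroB) and 732.8 (puroD). Both arrays of the clone 42 pair were above both arrays of the clone 48 pair. Clone 42 was 2.74-fold over clone 48 and puroB 1.90-fold over puroD, whereas the log2 differences within the pairs were 0.21 and -0.32. Among all tested probe sets, 2.48% were higher in both arrays of the clone 42 pair by 2-fold or more on the mean.

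**Figure D2:**
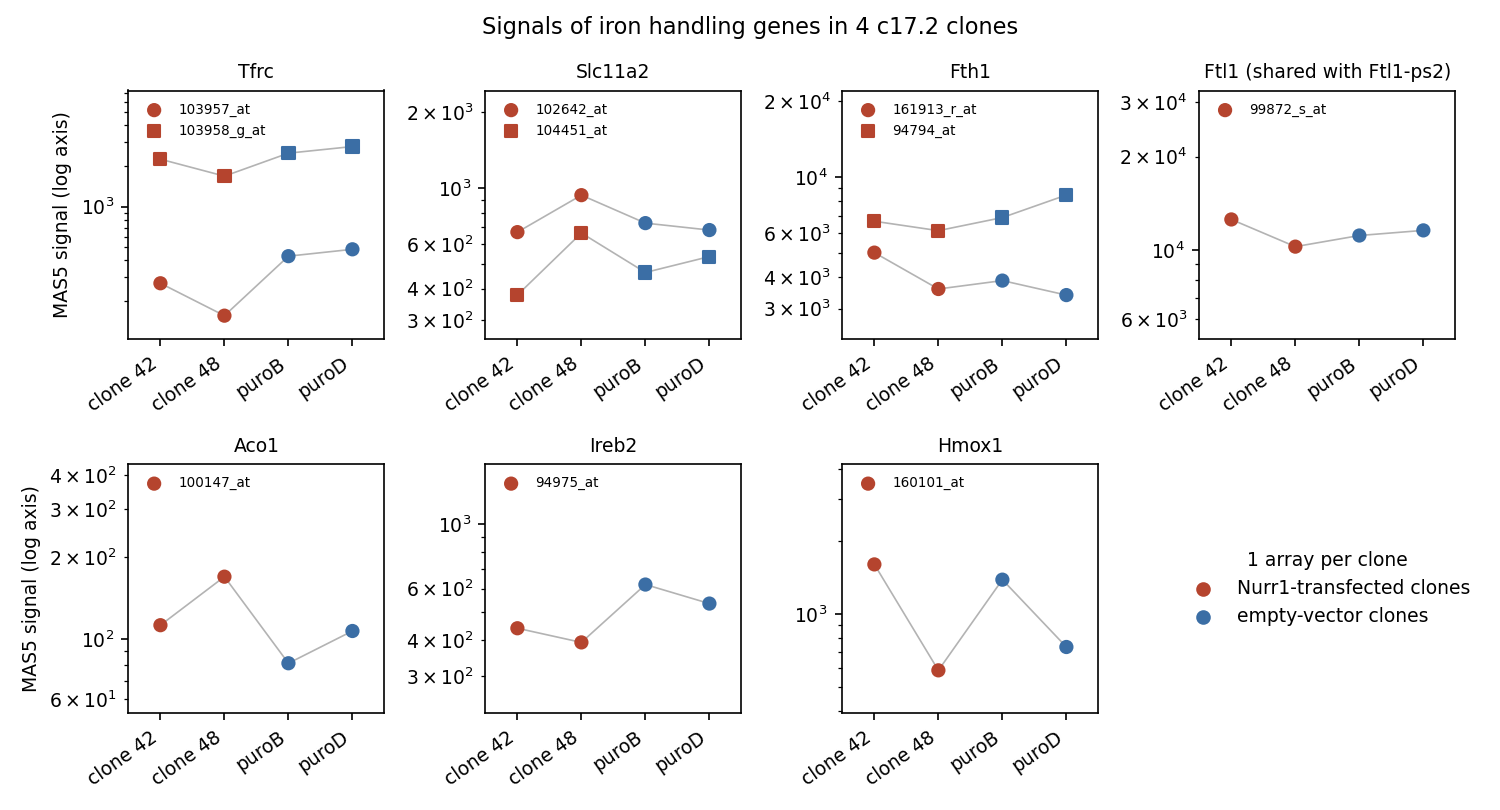
MAS5 signal (log axes) of each gene probe set in the 4 clones, 1 array per clone, with Nurr1-labelled clones in red on the left and empty-vector clones in blue on the right; lines join the arrays of a probe set, and marker shapes tell probe sets of a gene apart. Tfrc and Ireb2 are lower in both red clones, Aco1 is higher, Hmox1 is high in clone 42 and puroB, and the Slc11a2, Ftl1 and lower Fth1 series overlap between groups.

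Over the 10 gene probe sets, 4 were lower in both pairs (both Tfrc, 94794_at of Fth1, and Ireb2), 2 were higher in both (161913_r_at of Fth1, and Aco1) and 4 differed in sign. In the same 4 of 10 both Nurr1-labelled arrays lay under both controls, beside 17.9% of all 6419 tested probe sets. Both lay above both controls for Aco1 alone, beside 12.8% of the tested ones. A 2-fold lower signal was reached by 0 of 10 gene probe sets in the pair of clone 42, where 4.78% of the tested probe sets reached it. In the pair of clone 48 it was reached by 1 of 10, Tfrc at 103957_at, against 3.72%. The median log2 difference of the 10 was -0.08 and -0.25 in the pairs, and that of all tested probe sets -0.06 and -0.03. Of the 10, 9 passed the filter on low signals. The genes were chosen with this contrast known, so nothing is read from these shares.

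**Figure D3:**
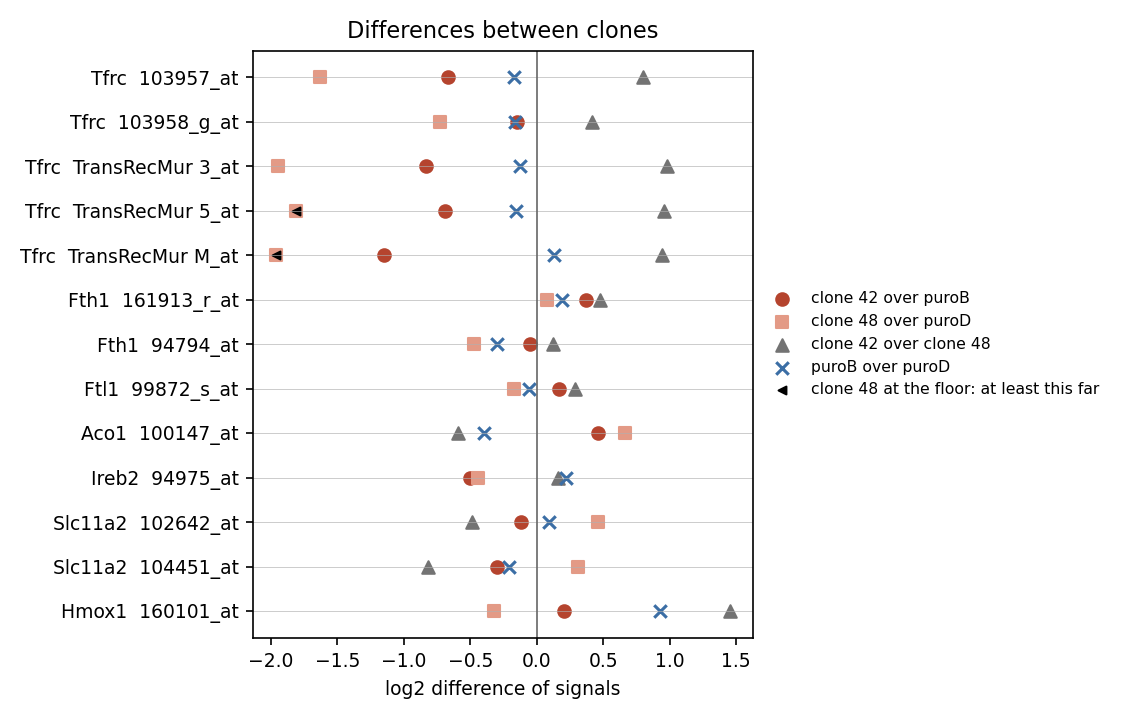
Log2 differences of signal (horizontal axis) for the 13 probe sets: Nurr1-labelled over control in each matched pair, and, for scale, between the 2 Nurr1-labelled and between the 2 control clones. All 5 Tfrc probe sets lie left of 0 in both pairs, with at most 0.17 on the log2 scale between the controls; for Hmox1 the differences between clones of a group (1.46 and 0.92) exceed those within the pairs.

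The wider iron and heme system gave no call. The fit across all tested probe sets, with limma and the matched pair as a block, called 7 of 6419 (0.109%) at a Benjamini-Hochberg adjusted p under 0.05. Only 9 of the 13 probe sets entered that fit, since array controls and Aco1 were left out. None of the 7 was among them, but members were chosen with this contrast known, so nothing is read from that. Of the other genes in 9 lists of iron and heme handling and their regulators, 68 were on the array and 44 bright enough to be tested. Of these 44, each taken at its brightest tested probe set, 0 passed, and 0 had an unadjusted p under 0.05. Both pairs were higher for 12 and lower for 9 of them, and adjusted p-values in limma ran from 0.819 to 1.00. The median of their mean log2 differences was 0.04, that of all tested probe sets -0.04.

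In heme synthesis, 3 of 8 tested genes exceeded their controls in both pairs and 3 lay under them. Alas1, the rate-limiting enzyme of that pathway outside red cells, had signals of 582.9 for clone 42 and 601.5 for clone 48, versus 791.1 for puroB and 827.6 for puroD (mean log2 -0.45 ± 0.29, SE; limma adjusted p = 0.855). Both Nurr1-labelled arrays were lower, without passing. Alad, the next enzyme, had a mean of 0.29, and Abcb10, a mitochondrial transporter, of 0.18. Among 8 genes of heme breakdown and transport, Slc48a1, which moves heme out of endosomes, had the lowest adjusted p, with log2 differences of -0.41 and -0.61 (mean -0.51 ± 0.29, SE; limma adjusted p = 0.819). In the same list Hp, the hemoglobin-binding haptoglobin, had a mean of 0.24 and the scavenger receptor Lrp1 of -0.34.

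Among 12 tested genes of iron-sulfur cluster assembly, 3 exceeded and 1 lay under the controls in both pairs, with medians of -0.00098 and 0.20. Ciao2b, of the cytosolic assembly machinery, had 0.25 and 0.56, the sulfur donor Nfs1 had 0.35 and 0.25, and the scaffold Iscu had -0.0090 and -0.69. Of 4 tested genes of iron uptake, Pcbp2, an iron chaperone, had -0.29 and -0.21, and Snx3, a sorting nexin that helps recycle the transferrin receptor, 0.24 and 0.04. Among 3 genes of ferritin turnover and export, Ncoa4, the receptor that sends ferritin to lysosomes, had 0.08 and 0.42. The 1 tested gene of the hepcidin pathway, the co-receptor neogenin (Neo1), had -0.49 and -0.43. Of 2 other transcripts with an iron responsive element on the array, 0 were bright enough to be tested.

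Few regulators of Hmox1 or factors of the hypoxia response differed with one sign in both pairs. Of 5 tested regulators of Hmox1, each at its brightest tested probe set, 0 exceeded and 1 lay under the controls in both pairs. That was the small Maf protein Mafg, at -0.16 and -0.05. The other tested probe set of Mafg, a dimmer one, gave larger differences of -0.59 and -1.02 (limma unadjusted p = 0.0193, adjusted p = 0.478). The size of the Mafg difference thus depended on the probe set. Of 3 tested hypoxia factors, Egln2, an oxygen sensor that marks HIF proteins for destruction, had 0.07 and 0.13. Egln1, its relative, was the only one of the 44 genes to differ by 2-fold in either pair at the brightest probe set. It is named for that after its values were seen. Its signal was 580.7 (clone 42) and 931.5 (clone 48), compared with 1312.5 (puroB) and 664.1 (puroD). It was lower in the first pair and higher in the other, so the groups overlapped.

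Proliferation genes did not follow the order of clones seen for Tfrc. In the pair of clone 42, 17 of 18 tested genes were lower (median log2 difference -1.04), but in that of clone 48 only 6 were (median 0.15). Over both pairs 0 passed in limma, and 3 had an unadjusted p under 0.05, as had 474 of all 6419 tested probe sets. Summed over the list, signals were 24110 for clone 42 and 52180 for clone 48, versus 45100 for puroB and 48260 for puroD. Tfrc was lowest in clone 48, where this sum was highest. Single genes were lower in both pairs: the DNA topoisomerase Top2a had -1.72 and -0.64, the cyclin Ccnb2 -1.61 and -0.47, and the mitotic kinase Plk1 -1.44 and -0.35. The part of proliferation in the Tfrc values was not tested.

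**Figure D4:**
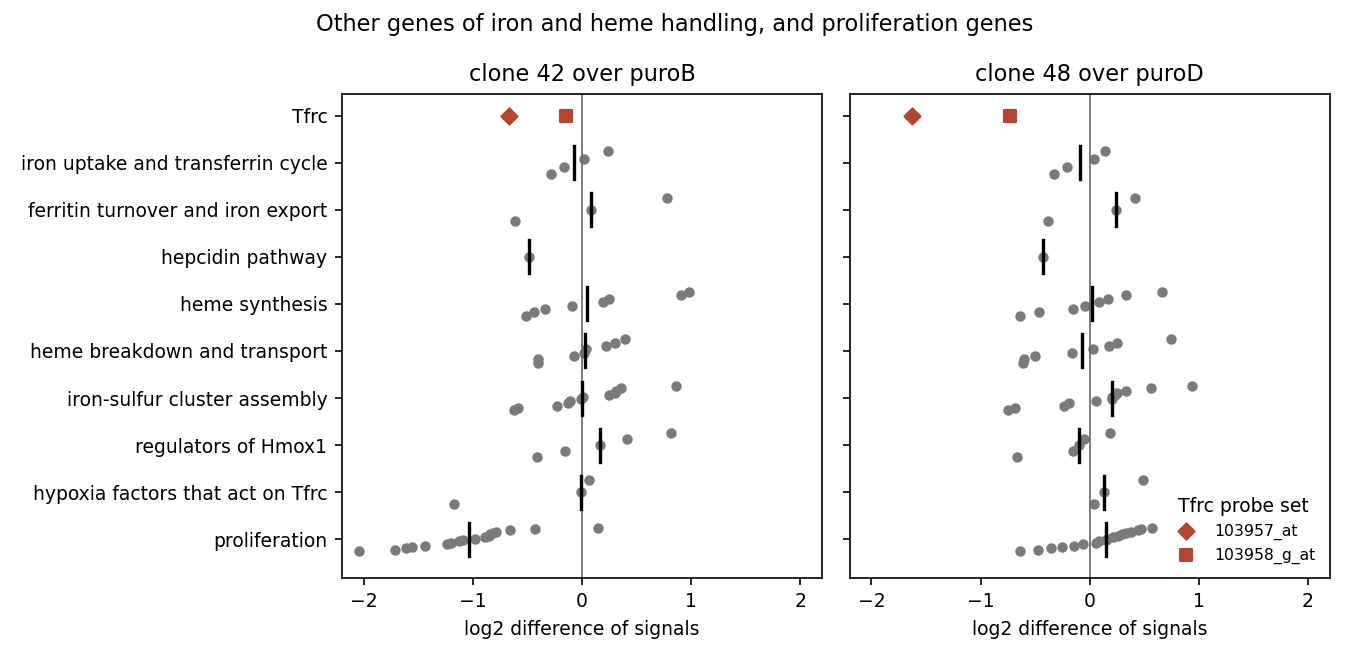
Log2 differences (horizontal axes) of single tested genes (grey points) and list medians (black bars) for 8 iron and heme lists and the proliferation genes, with both Tfrc gene probe sets in red on top; the left panel is clone 42 over puroB and the right panel clone 48 over puroD. The proliferation median is -1.04 on the left and 0.15 on the right, whereas Tfrc is below 0 in both.

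By mean-centred log2 profile over the 4 arrays, the probe sets nearest to the brighter Tfrc one among 5818 with 1 symbol were those of Stxbp2, a regulator of vesicle fusion (162272_r_at, Euclidean distance 0.049 on the log2 scale), Lmbr1l (0.0545), the serine protease Prss32 (0.0696), the translation factor subunit Eif2b2 (0.073) and the glycine receptor subunit Glra1 (0.0765). Stxbp2 had 225.3 (clone 42) and 172.3 (clone 48), compared with 261.6 (puroB) and 283.2 (puroD). Nearest to Hmox1 among 5819 were Pcyt1a, of phosphatidylcholine synthesis (99035_at, 0.0398), C77080 (0.12), the annexin Anxa4 (0.176), the syntaxin Stx3 (0.178) and the lipid phosphatase Plpp3 (0.194). Pcyt1a had 202.4 for clone 42 and 71.2 for clone 48, versus 171.2 for puroB and 89.5 for puroD, so that it was high in one matched pair and low in the other. With 4 arrays, a small distance says only that these 4 values run alike.

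Markers were checked for the labelled cell type and for others that handle much iron. Nes, the intermediate filament of neural stem cells, had signals of 3173.8 (clone 42) and 3719.8 (clone 48), compared with 3325.2 (puroB) and 3029.8 (puroD), and 8 of 11 neural stem and progenitor markers on the array exceeded the highest control not spiked in on each of the 4 arrays. Vim, another filament of such cells, reached at most 84.6. The 11 markers summed to 5846 for clone 42 and 6050 for clone 48, versus 7084 for puroB and 7382 for puroD. Of 6 tested, 5 (Fabp7, Notch1, Notch2, Hes1 and Id2) were lower in both pairs, 0 passed in limma, and 1 had an unadjusted p under 0.05. That was Fabp7, a fatty acid binding protein of radial glia, with log2 differences of -1.20 and -3.29 (limma adjusted p = 0.0503). Summed over 12 microglia and macrophage markers, signals were 1050 (clone 42) and 759.2 (clone 48), compared with 1300 (puroB) and 1197 (puroD). This sum was lowest in clone 48 and next in clone 42, as were the erythroid and astrocyte sums given below. Of the 12, Cd14, Csf1r, C1qb and Cd68 exceeded the highest control not spiked in on all 4 arrays, with Cd14 the brightest at up to 329.8. The leukocyte genes Ptprc, Aif1, Itgam and Adgre1 reached at most 23.2 on any array, and 0 of 3 tested passed in limma (0 with an unadjusted p under 0.05). The 7 erythroid markers summed to 445.7 for clone 42 and 427.9 for clone 48, versus 568.1 for puroB and 470.6 for puroD, and 2 of them, the transcription factors Klf1 (up to 170.8) and Gata1 (up to 137.8), exceeded the highest control not spiked in on all arrays. Of the hemoglobin genes, Hbb-b2 reached at most 21.7 and Hba-a1 121.5, in clone 48. Fibroblast and mesenchymal markers summed to 21000 (clone 42) and 13750 (clone 48), compared with 9233 (puroB) and 9778 (puroD). Of 7 tested, 4 were higher in both pairs and 1, Twist1, was lower in both. In limma 0 of the 7 passed, and 5 had an unadjusted p under 0.05, as had 474 of all 6419 tested probe sets. Neuronal markers summed to 10100 for clone 42 and 8091 for clone 48, versus 4298 for puroB and 4264 for puroD. Most of that sum was Tubb3, whose brightest probe set had 5688 (clone 42), 4632.6 (clone 48), 2703.2 (puroB) and 2703.6 (puroD). Of 4 tested, 3 were higher in both pairs. At the brightest probe sets 0 of the 4 passed in limma, and 3 had an unadjusted p under 0.05. The other tested probe set of Tubb3 was among the 7 that passed, with log2 differences of 1.905 and 1.677 (limma adjusted p = 0.0487). Map2, too dim to be tested, went the other way, with 45.8 (clone 42) and 4.2 (clone 48) against 198.1 (puroB) and 120.3 (puroD). Oligodendrocyte markers summed to 6900 (clone 42) and 9540 (clone 48), compared with 6806 (puroB) and 5038 (puroD). Most of that sum was Sox10, with 5118.9 (clone 42), 7668.3 (clone 48), 4749.1 (puroB) and 3437.1 (puroD). Of 4 tested, only Sox10 was higher in both pairs, and 2, Mbp and Pdgfra, were lower in both. In limma 0 of the 4 passed, and 1, Pdgfra, had an unadjusted p under 0.05. Astrocyte markers summed to 4828 for clone 42 and 3766 for clone 48, versus 5746 for puroB and 5887 for puroD. Of 2 tested, 0 were higher and 1, Gja1, was lower in both pairs. Neither passed in limma, and 1, Gja1, had an unadjusted p under 0.05. The part of these marker levels in the iron gene values was not tested.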

How the data were processed

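The authors deposited linear intensity, with 1 signal for each probe set on each array. The submitters' processing notes name MAS5, without a version or scaling target. The 4 arrays had median signals between 125.6 and 160.1, and means trimmed by 2% at each end between 500.4 and 500.5. Here each array was brought to a trimmed mean of 500 and floored at the 30th percentile of the pooled values (40.3) before log2 was taken. Printed signals are as deposited.

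Probe sets over the median of all values (145.1) on at least 2 arrays were tested, without the 66 array controls. The contrast of Nurr1-labelled with control clones was fitted in limma 3.58.1 (R 4.3.3) with the matched pair as a block, an intensity trend and Benjamini-Hochberg adjustment. The fit leaves 1 residual degree of freedom per probe set. The pairing comes from the labels; same-pair arrays deviated from their group means with r = 0.192 across genes. Limma moderates the variance of each probe set toward a value pooled over all tested probe sets of like intensity. The SEs and p-values therefore rest largely on that pooled value. They rest less on how far the 2 pairs of a gene disagree. Each line has 1 array, so spread within a clone is not measured. The script was tested on simulated data.

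Symbols came from the platform annotation: of 12403 gene probe sets, 10814 had 1 symbol, 396 several and 1193 none. Listed genes are represented by their brightest tested probe set. All probe sets of the 7 genes are named; of each list, genes past the threshold and up to 3 whose difference has one sign in both pairs, ranked by the smaller of both; and the 5 nearest profiles. Genes and lists were chosen with earlier results of these data known. Alternatives varied the block, scaling, floor, filter, probe set and clones.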

Additional observations from a re-analysis of the deposited data

Results flagged for a closer look

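In 4 probe sets the matched pairs differed from their controls in opposite directions, and the difference between the pairs was not tested, since each pair has 1 array per clone. The log2 difference in the clone 42 pair minus that in the clone 48 pair was -0.58 for Slc11a2 at 102642_at and -0.61 at 104451_at. It was 0.53 for Hmox1 at 160101_at and 0.35 for the probe set shared by Ftl1 and Ftl1-ps2 (99872_s_at). Some of these signs changed with the scaling. The Ftl1 probe set had -0.07 and 0.01 in the pairs with quantile normalization, and 0.29 and 0.04 with scaling to the median. Slc11a2 at 102642_at had 0.003 and 0.68 with scaling to the median. With arrays scaled to spiked-in controls Hmox1 had -0.37 and 0.33.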

How the results depend on the processing

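Tfrc was lower in the Nurr1-labelled clones at all 5 probe sets under every scaling and without any 1 clone, except that with the floor at the median of all values the TransRecMur 5' probe set gave 0, both groups being at the floor. Instead of -0.44 at its brighter probe set, Tfrc had -1.15, -1.39, -1.25 and -1.56 at the others, and -0.65 to -0.23 when 1 clone was left out. Fth1 had -0.26 at its brighter probe set (-0.41 to -0.11 without 1 clone) and the opposite sign, 0.22, at the other (-0.02 to 0.46, below 0 without clone 42). Aco1 had 0.71 with quantile normalization, 0.73 with scaling to the median and 0.11 with the higher floor (0.27 to 0.86 without 1 clone), and Ireb2 -0.41 and -0.30 under those scalings (-0.58 to -0.36). Without 1 clone Hmox1 ran from -0.78 to 0.67, Slc11a2 from -0.07 to 0.41 at 102642_at and from -0.40 to 0.41 at 104451_at, and Ftl1 from -0.15 to 0.14. Scaling to the median moved the median of all tested probe sets to 0.06 and 0.18 in the pairs.

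With no replicate block, with quantile normalization, with no floor and with no filter 0 probe sets passed in limma (287, 375, 473 and 560 at an unadjusted p under 0.05). Scaling to the median gave 51, the higher floor 17 and the filter on all 4 arrays 49 (532, 505 and 449 unadjusted), and leaving out 1 clone, fitted unpaired, 0 to 51. Of the wider iron genes 0 passed under each of these, with at most 2 at an unadjusted p under 0.05. The probe sets 2-fold lower in clone 42 numbered 571 with no filter and 186 with the filter on all arrays, against 307. Those in clone 48 numbered 159 with quantile normalization, 134 with scaling to the median, 133 with the higher floor, 500 with no filter and 89 with the filter on all arrays, against 239. The number of probe sets tested differed too, with 12403 under no filter and 5498 under the filter on all arrays, against 6419. The causes of these changes were not tested. MAS5 signals near background limit Aco1 and the 5' and middle Tfrc controls.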

Other observations

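The 9 control probe sets for transcripts spiked in at hybridisation differed between arrays after the authors' scaling. They averaged 0.58 higher on the log2 scale in clone 42 than in puroB, at 8 of 9 probe sets, and -0.65 in clone 48 relative to puroD, lower at 9 of 9. With each array scaled to these controls instead, a setting chosen after seeing the data, Tfrc at 103957_at had -1.25 and -0.99 in the pairs, at 103958_g_at -0.73 and -0.08, and at the 3' control -1.42 and -1.30. The 5' control had -1.27 and -1.21 and the middle one -1.73 and -1.51. The 2 pairs were then closer to each other at 103957_at and at the 3' control, but not at 103958_g_at. At all 5 Tfrc probe sets the difference was then larger in the pair of clone 42. With the main scaling it was larger in the pair of clone 48, so which pair differed more depended on the scaling. Under the same setting Ireb2 had -1.08 and 0.20 and Aco1 -0.12 and 1.31, so their directions no longer held in both pairs. That setting moved the median of all tested probe sets to -0.64 and 0.62, so most genes shift with it. Which scaling is closer to the amount of RNA was not tested.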
